A study of Rattus norvegicus with 8 samples.

Results

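The genes described here are the 91 rows of the count table annotated as lincRNA (long intergenic noncoding RNA, 59 genes), antisense (5 genes) or processed_transcript (27 genes) with a mean raw count of at least 100 over the 8 libraries. They are 91 of 3102 rows with these annotations, of which 1673 had 0 counts in all libraries, and 91 of 34298 rows in all. They were chosen by their mean raw count over all 8 libraries, so levels are given as a description. The comparison of the siRNA groups was not part of the rule.

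The samples were orbitofrontal cortex of 8 outbred Sprague-Dawley rats, adult males that were 8 weeks old on arrival. In 4 rats (replicates 1 to 4) an siRNA targeted the junction where neurexin 3 exons are joined back to front to form the circular RNA circNrxn3, and 4 rats (replicates 1, 3, 4 and 5) had a scrambled control siRNA. Both groups received 5 ng of siRNA in 1 µl with the JetPEI transfection reagent, infused locally into the orbitofrontal cortex, and the tissue was taken 7 days later. The infused tissue was sequenced as a whole, so transfected and untransfected cells of every type were read together, and fewer cells of a type cannot be told apart from less RNA per cell.

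Long noncoding RNAs are transcripts that are spliced and often polyadenylated like mRNA but have no long conserved reading frame. Many stay in the nucleus, some act on the gene next to them or on distant chromatin, some are the precursors of microRNAs or small nucleolar RNAs, and for most no function is known. The brain expresses more of them than most organs, usually at lower levels than mRNA. RNA was selected here with poly-T beads, so noncoding RNAs without a poly-A tail, and circular RNAs including circNrxn3 itself, are poorly represented.

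The agent that separates the groups is shown first, with the 19 paired bases of the sense strand and bases 2 to 8 of the antisense strand, its seed, in capitals.
siRNA sense: UCCAAAGGCUAGACAGGAAuu
siRNA antisense: uUCCUGUCuagccuuuggauu

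Libraries held 28219271 to 35221782 counts in the circNrxn3 siRNA group and 27589883 to 35191810 counts in the scrambled group. Linear Nrxn3 is not what the siRNA was directed at. Its level was 11.6, 12.4, 3.0 and 8.4 CPM (counts scaled to a common library size) in circNrxn3 siRNA rats, against 12.3, 3.4, 6.4 and 8.9 CPM in scrambled rats, and the groups overlapped. Neuron markers were high in every library, at 6622 ± 237 summed CPM in circNrxn3 siRNA rats and 6454 ± 193 in scrambled rats (SD, n = 4 each). Summed over all 7 markers, astrocyte genes ran from 2364 to 2706 CPM in circNrxn3 siRNA rats and from 2687 to 3087 CPM in scrambled rats (exact permutation test, 2-sided, p = 0.0571). All 5 red blood cell markers together ran from 359 to 759 CPM in circNrxn3 siRNA rats and from 607 to 2438 CPM in scrambled rats (exact permutation p = 0.0857). The part of differences in these markers in the values below was not tested.

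By annotation, the label of long noncoding RNA did not hold for all of these genes. In RefSeq (GRCr8), 23 of the 91 carry a symbol listed as protein-coding, 22 of them annotated as processed_transcript in the count table and 1, Dmrtc1b, as lincRNA. Among them are Adgrb1, an adhesion receptor of neurons and glia that binds apoptotic cells, Sv2b, a glycoprotein of synaptic vesicles, Syne1 (nesprin-1), which ties the nucleus to the cytoskeleton, and Top2b, a DNA topoisomerase of postmitotic neurons. Of the rest, 1 (LOC102549726) is listed as lncRNA and 67 had no RefSeq entry under their name. Of those 67, 63 carry only clone-style names, which give no role. The other 4 are LOC100364190, Tnxb, Dlx6as and LOC100910839. A missing entry gives no class, and Tnxb among these is a gene for an extracellular matrix protein. The annotation also describes LOC100364190 as mKIAA0868 protein-like and LOC100910839 as leucine zipper protein 2-like. The genes without a protein-coding symbol are therefore not all noncoding.

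The genes without a protein-coding symbol in RefSeq had shorter models and fewer counts than those with one. These 68 genes had a median model length of 1592 bp and a median of the mean counts of 255. The 23 with a protein-coding symbol had medians of 5179 bp and 734 counts. Per model length they were closer, with a median of the authors' FPKM of 5.87 for the 68 and 7.49 for the 23. Models of a single unspliced block made up 9 of the 91, or 9.89%, against 387 of 11145 protein-coding rows with the same count minimum, or 3.47%. All 9 were lincRNA or antisense rows. The genes lay on 20 chromosomes, with 10 each on chromosomes 1 and 20 and 9 on X. At the count minimum, the last genes included were Rn60_8_0646.1, Rn60_6_1241.2 and AABR07026032.1 with mean counts of 105, 104 and 101.0. The first left out were AABR07035008.1, AABR07073453.1 and Col6a3 with 99.3, 96.8 and 95.3.

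Together the 91 genes took a small and stable share of each library. The share was 0.496%, 0.513%, 0.505% and 0.519% of counts in circNrxn3 siRNA rats, against 0.517%, 0.507%, 0.519% and 0.507% in scrambled rats. The 2 ranges overlapped. Adgrb1 had the highest count of the 91, and without it the share was 0.368% ± 0.0089 in circNrxn3 siRNA rats and 0.348% ± 0.011 in scrambled rats (SD, n = 4 each). The 68 genes without a protein-coding symbol in RefSeq took 0.167% ± 0.0091 in circNrxn3 siRNA rats and 0.163% ± 0.0060 in scrambled rats.

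Per length, 1 unnamed lincRNA stood above all others. AABR07065531.5 (chr6:133667975-133676907, rn6, plus strand) had 687, 714, 903 and 919 FPKM in circNrxn3 siRNA rats, against 714, 952, 838 and 925 FPKM in scrambled rats. FPKM is the authors' level per unit of model length, also scaled between libraries, and this gene's model is 583 bp of an 8933 bp span. The lowest libraries were replicates 1 and 2 of the circNrxn3 siRNA group and replicate 1 of the scrambled group, and the groups overlapped. Its log2 fold change was -0.08 ± 0.12 (SE; edgeR quasi-likelihood test, adjusted p = 0.921).

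This lincRNA lies on chromosome 6 between Dlk1, which ends 84224 bp away, and Rtl1, whose nearer end, its 3' end on the other strand, is 34247 bp away. In mammals both genes lie in an imprinted domain whose maternal chromosome carries noncoding RNAs and arrays of microRNA and snoRNA genes. Of 55 microRNA rows in a window around the lincRNA, 4 had a mean count of at least 50 and 50 had a mean under 10. Of 45 snoRNA rows in the window, 0 reached 50. The window was set by distance, from before Dlk1 to past Mir3072, and not by the ends of the domain. The 4 were AABR07065531.1, Mir770, Mir410 and Mir3072. Mature microRNAs have no poly-A tail, so these are reads over the hairpin interval and not mature microRNA levels.

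The row nearest the lincRNA, AABR07065531.1 at 5372 bp, had 1395, 2697, 2382 and 3346 raw counts in circNrxn3 siRNA libraries and 881, 2719, 2199 and 2428 in scrambled libraries. Mir770, 6050 bp from the lincRNA, had 402, 370, 97 and 260 raw counts in circNrxn3 siRNA libraries and 296, 179, 193 and 215 in scrambled libraries. Mir410 had 123, 63, 40 and 56 raw counts in circNrxn3 siRNA libraries and 64, 43, 100 and 35 in scrambled libraries. Mir3072 had 255, 232, 216 and 265 raw counts in circNrxn3 siRNA libraries and 203, 226, 224 and 201 in scrambled libraries. The groups overlapped at each of these rows. In raw counts, library 3 of the circNrxn3 siRNA group was the lowest of its group at Mir770, Mir410 and Mir3072. At AABR07065531.1, library 1 of each group was the lowest of its own. These values were not scaled for library size. Library 3 was the smallest of the circNrxn3 siRNA group (28219271 counts in total) and library 1 the smallest of the scrambled group (27589883), so these orders may partly reflect depth, which was not tested.

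Mir3072 and AABR07065531.1 had no matched mature sequence. Those of Mir770 and Mir410, from RefSeq (GRCr8, chromosome 6), are shown with their seed, bases 2 to 8, in capitals. They are the products of 2 of the hairpins with reads, whose gene models lie on the same strand as that of the most abundant lincRNA. Mir410 lies 217086 bp from this lincRNA.
rno-miR-770-5p: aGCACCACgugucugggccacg
rno-miR-770-3p: gUGGGCCUgacguggag
rno-miR-410-5p: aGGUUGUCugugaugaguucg
rno-miR-410-3p: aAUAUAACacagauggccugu
Each of these 4 seeds is shared with 0 of the other sequences shown here, the antisense strand of the siRNA included.

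The next levels belonged to genes with protein-coding symbols and to short antisense models. Adgrb1 (chr7:115766486-115828514) followed with a mean of 269 FPKM over the 8 libraries, and Snx3, a sorting nexin that retrieves proteins from endosomes, with 228 FPKM. Rn60_9_0737.3, an antisense row whose model is 318 bp, had a mean of 102 FPKM, and Rn60_1_0436.1, a single block of 542 bp on the minus strand inside the mu opioid receptor gene Oprm1, had 91.4 FPKM. Oprm1 itself had a mean of 5.13 counts, against 1563 for the block inside it. The 10 highest also included AABR07070131.1 (79.7), AABR07017145.1 (73.6), Sv2b (65.9) and AABR07050265.1 (51.6 FPKM). Among the 9 genes given, the library ranges of Adgrb1 and Snx3 overlapped, as did those of each pair of neighbours from Rn60_9_0737.3 down. The model of AABR07050265.1 is 254 bp of a 93958 bp span, the shortest of the 91, and its FPKM was the most spread of the 9, from 27.3 to 66.3 in circNrxn3 siRNA rats and from 37.6 to 100.5 in scrambled rats.

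**Figure D1:**
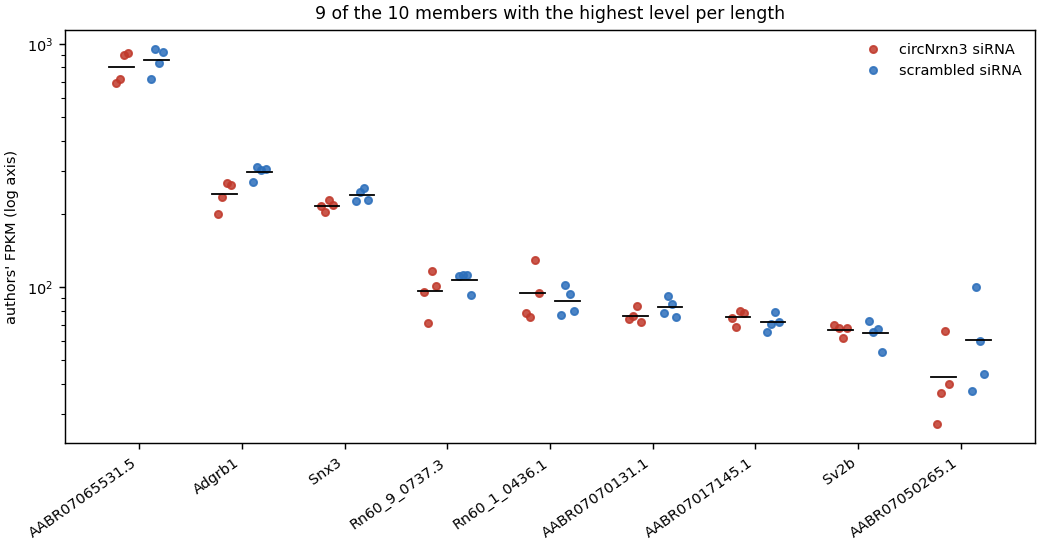
Authors' FPKM (log axis) of 9 of the 10 genes with the highest mean, with 1 point per library, circNrxn3 siRNA left of scrambled siRNA for each gene, and black lines at the group means. AABR07065531.5 runs from 687 to 952 over the libraries, above Adgrb1, and the groups overlap for every gene shown except Adgrb1.

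No gene of the 91 differed between the siRNA groups past the threshold. Of the 91, 0 had an adjusted p under 0.05, where 0.0% of the 16573 genes tested did (edgeR quasi-likelihood test, Benjamini-Hochberg adjustment over all genes tested). All 91 had passed the filter on low counts. The smallest adjusted p was 0.833 in this fit, which did not pair the rats. At an unadjusted p under 0.05 there were 10 of 91, or 11.0%, against 5.59% of all genes tested and 6.75% of the 12024 tested genes with a mean count of at least 100. Of these 10, 5 were higher in circNrxn3 siRNA rats (5.49%, against 2.38% of all genes tested and 2.80% of those with that mean count) and 5 lower (5.49%, against 3.20% and 3.95%). Leaving out replicate 1 of the circNrxn3 siRNA group or replicate 5 of the scrambled group brought the 10 to 5, and leaving out replicate 2 of the circNrxn3 siRNA group or replicate 3 of the scrambled group brought it to 6. limma-voom called 0 of the 91. DESeq2 called 18 of all genes, and gave an adjusted p to 17 of the 91, of which it called 0.

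The change was centred on zero. The median log2 fold change was -0.0024, with 43 genes above 0 and 48 below, beside 0.0066 over all genes tested and 0.0046 over those with a mean count of at least 100. It was -0.03 for the 68 genes without a protein-coding symbol in RefSeq and 0.03 for the 23 with one. Fold changes ran from -0.50 to 0.85, and the median standard error was 0.17, beside 0.17 over all genes tested and 0.125 over those with a mean count of at least 100. Both ends of this range moved when 1 library was left out. The lowest, that of AABR07050265.1, was -0.15 without replicate 3 of the scrambled group and -0.80 without replicate 3 of the circNrxn3 siRNA group.

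**Figure D2:**
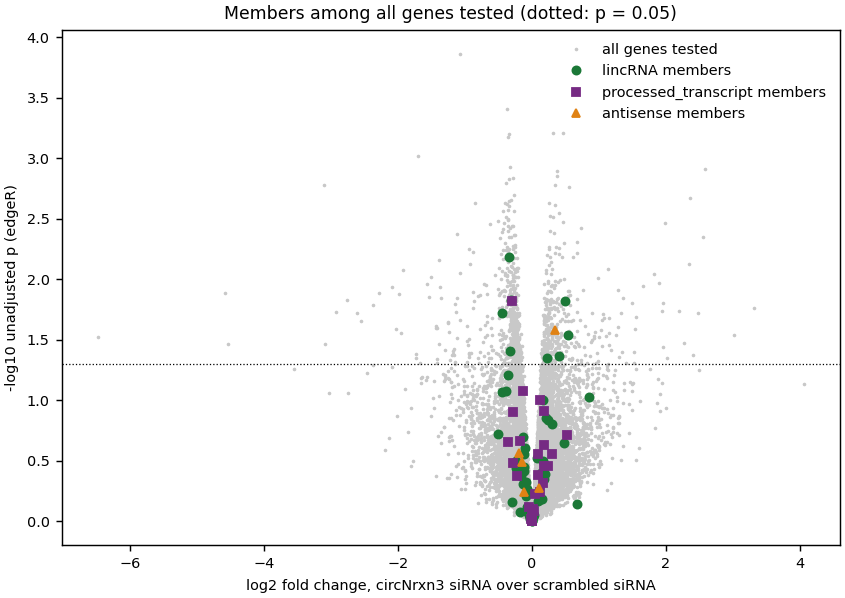
Log2 fold change of circNrxn3 siRNA over scrambled siRNA (x axis) against -log10 of the unadjusted edgeR p (y axis), with the 16573 genes tested in grey and the 91 genes in colour by annotation. The coloured points run from -0.50 to 0.85 on the x axis, and 10 of them lie above the dotted line at an unadjusted p of 0.05 (edgeR).

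The 2 groups did not overlap at 9 of the 91 genes, or 9.89%, beside 3.48% of all genes tested and 3.84% of those with a mean count of at least 100. Of the 9, 3 were higher in circNrxn3 siRNA rats (3.30%, against 1.82% of all genes tested and 2.0% of those with that mean count) and 6 lower (6.59%, against 1.65% and 1.84%). The largest of the 9 was Adgrb1, with 1149, 1354, 1526 and 1495 CPM in circNrxn3 siRNA rats, against 1545, 1762, 1712 and 1736 CPM in scrambled rats. Every circNrxn3 siRNA library was below every scrambled one, and library 1 was the lowest of each group. The log2 fold change was -0.29 ± 0.10 (SE), with an adjusted p of 0.833 (edgeR).

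Among unnamed lincRNAs the smallest p belonged to AABR07002910.1 (chr1:88970768-88977882, plus strand). It had 40.4, 43.4, 46.5 and 42.6 CPM in circNrxn3 siRNA rats, against 49.98, 57.6, 63.0 and 47.5 CPM in scrambled rats. The highest circNrxn3 siRNA library, replicate 3, lay just below the lowest scrambled one, replicate 5. Its log2 fold change was -0.33 ± 0.10 (SE; edgeR, adjusted p = 0.833).

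The gene ends 462 bp from the end of Arhgap33, a GTPase-activating protein of the sorting nexin family, transcribed towards it from the other strand. Arhgap33 had 127, 218, 211 and 200 CPM in circNrxn3 siRNA rats, against 221, 316, 251 and 246 CPM in scrambled rats, again without overlap. Its log2 fold change was -0.45, with an adjusted p of 0.833 (edgeR). No source used here says if counting used strand, and sharing of reads between these genes was not tested.

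AABR07054593.1 (chr3:162687971-162692111, minus strand) had 12.3, 11.8, 12.3 and 14.0 CPM in circNrxn3 siRNA rats, against 14.7, 15.6, 16.4 and 15.8 CPM in scrambled rats. All circNrxn3 siRNA libraries lay below all scrambled ones. The log2 fold change was -0.31 ± 0.11 (SE; edgeR, adjusted p = 0.833). It starts 74 bp from the start of Ncoa3, a nuclear receptor coactivator read in the other direction, whose log2 fold change was 0.07 (adjusted p = 0.980).

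The other lower genes without overlap were of low level. AABR07073038.2 had 8.87, 8.13, 8.13 and 8.79 CPM in circNrxn3 siRNA rats, against 9.05, 10.1, 11.9 and 11.2 CPM in scrambled rats. AABR07026197.1 had 3.43, 3.66, 3.78 and 3.81 CPM in circNrxn3 siRNA rats, against 5.26, 4.59, 4.71 and 4.21 CPM in scrambled rats. AABR07030914.1 had 4.84, 3.53, 4.71 and 4.85 CPM in circNrxn3 siRNA rats, against 5.29, 4.86, 7.48 and 5.74 CPM in scrambled rats, so that replicate 4 of the circNrxn3 siRNA group and replicate 3 of the scrambled group were almost level. Their log2 fold changes were -0.32, -0.35 and -0.38, with an adjusted p of 0.833 in each case (edgeR).

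AABR07052730.3 was lower with overlap, at 9.76, 7.70, 7.84 and 10.6 CPM in circNrxn3 siRNA rats, against 13.5, 14.1, 11.0 and 10.4 CPM in scrambled rats. Only replicate 4 of the circNrxn3 siRNA group and replicate 5 of the scrambled group crossed. Its log2 fold change was -0.45 ± 0.16 (SE; edgeR, adjusted p = 0.833). Snx3, Rn60_1_1362.2 and Tnxb (tenascin-X, an extracellular matrix protein) complete the 10 with the smallest p at lower levels. Their log2 fold changes were -0.13, -0.44 and -0.29, each with an adjusted p of 0.833 (edgeR).

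At higher levels, the smallest p belonged to AABR07041096.1 (chrX:119194437-119200775), with 8.30, 6.53, 6.87 and 7.37 CPM in circNrxn3 siRNA rats, against 4.79, 6.35, 4.38 and 4.96 CPM in scrambled rats. The groups did not overlap, but replicate 3 of the scrambled group came close to the lowest circNrxn3 siRNA library. The log2 fold change was 0.50 ± 0.17 (SE; edgeR, adjusted p = 0.833).

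Rn60_9_0975.2, a single block of 819 bp, had 3.89, 3.69, 5.04 and 3.50 CPM in circNrxn3 siRNA rats, against 3.08, 2.24, 3.10 and 2.65 CPM in scrambled rats. AABR07049886.2 had 7.16, 5.58, 4.93 and 6.14 CPM in circNrxn3 siRNA rats, against 4.11, 4.74, 4.56 and 4.62 CPM in scrambled rats. Neither gene overlapped between groups, and the log2 fold changes were 0.54 ± 0.21 and 0.40 ± 0.17 (SE; adjusted p = 0.833 for both, edgeR). Their mean counts were low, at 106 and 166.

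Rn60_20_0032.5, an antisense row that overlaps the class I histocompatibility genes RT1-S3, RT1-T24-4 and RT1-N3 on the other strand, had 13.4, 14.1, 12.2 and 12.8 CPM in circNrxn3 siRNA rats, against 12.6, 9.48, 9.33 and 9.89 CPM in scrambled rats. Only replicate 1 of the scrambled group reached the circNrxn3 siRNA range. Its log2 fold change was 0.35 ± 0.13 (SE; edgeR, adjusted p = 0.833), beside 0.31, 0.30 and -0.22 for the 3 RT1 genes, whose adjusted p were 0.867 to 0.938. The RT1 genes are related, and splitting of reads among them was not tested.

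Rn60_13_0839.5 had 71.6, 61.6, 62.3 and 67.2 CPM in circNrxn3 siRNA rats, against 62.0, 47.8, 62.3 and 51.9 CPM in scrambled rats, with a log2 fold change of 0.23 ± 0.10 (SE; edgeR, adjusted p = 0.833). Its groups overlapped. The others of the 10 with the smallest p at higher levels were AABR07026032.1, Plekha6, AABR07024542.1, Syne1 and AABR07068341.1, each with an adjusted p of 0.833 (edgeR). AABR07026032.1 had the highest fold change of the 91, 0.85 ± 0.46 (SE), or 1.33 without replicate 1 of the scrambled group, with libraries spread from 1.58 to 5.62 CPM in circNrxn3 siRNA rats and from 1.25 to 4.19 CPM in scrambled rats. Syne1, with the longest model of the 91 (29464 bp), had 401, 409, 318 and 369 CPM in circNrxn3 siRNA rats, against 362, 278, 325 and 357 CPM in scrambled rats, with a log2 fold change of 0.18 ± 0.11 (SE).

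Libraries also differed in how long and short gene models compared. Over genes with a mean count of at least 100, the median level of genes with long models (3746 bp or more) minus that of genes with short models (1574 bp or less), on the log2 scale around each gene's mean, was 0.17, 0.21, -0.07 and 0.01 in circNrxn3 siRNA rats, against 0.09, -0.16, -0.19 and -0.02 in scrambled rats (exact permutation test without pairing, 2-sided, p = 0.143). Between libraries of the same replicate number, it was higher in the circNrxn3 siRNA rat in 3 of 3 pairs. Syne1 was highest in libraries 1 and 2 of the circNrxn3 siRNA group, as was this measure. Adgrb1, which also has a long model (5658 bp), was instead lowest in those libraries. The part of model length in the fold changes was not tested.

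**Figure D3:**
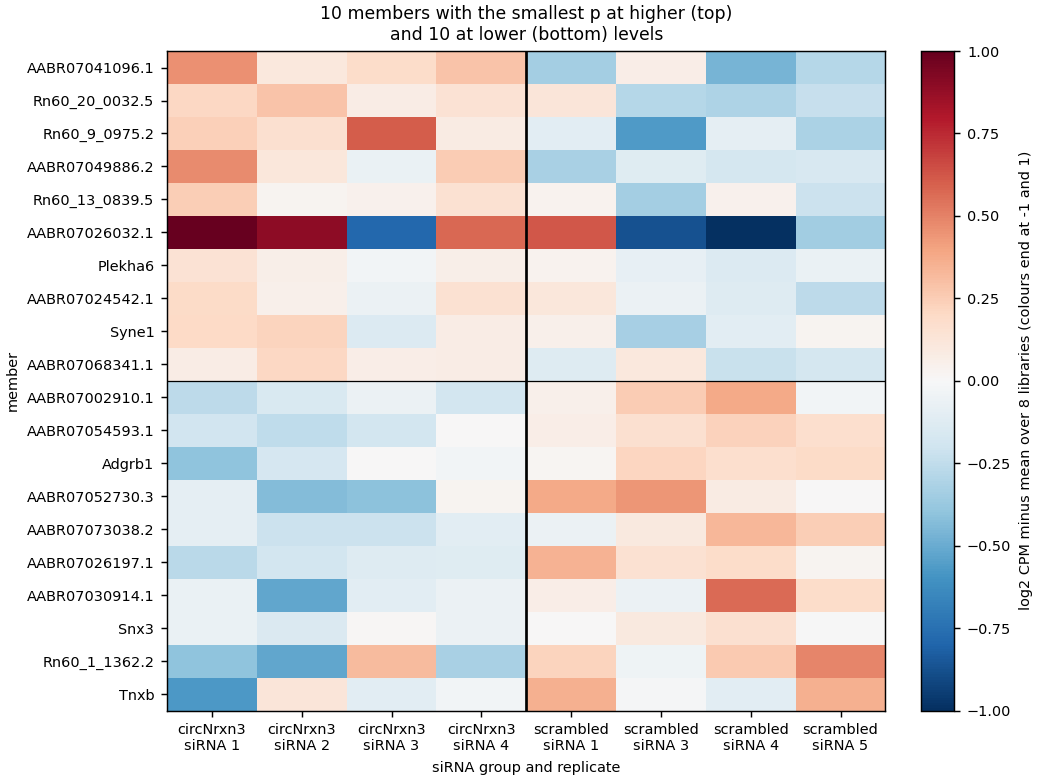
Log2 CPM minus each gene's mean over the 8 libraries (colour) for the 10 genes with the smallest unadjusted p at higher and the 10 at lower levels, with circNrxn3 siRNA libraries left of the black line and scrambled libraries right of it. AABR07026032.1 is the most uneven, with replicate 3 of the circNrxn3 siRNA group low and replicate 1 of the scrambled group high, against the rest of their groups.

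The genes varied between rats about as other genes of the same level did. The biological coefficient of variation, edgeR's estimate of the relative spread between animals beyond counting error, had a median of 0.214 over the 91 genes and 0.207 over all genes tested. By mean count it was 0.257 for 46 of the 91 and 0.263 for 2892 genes at 100 to 300 counts, 0.183 for 25 and 0.168 for 3839 at 300 to 1000, and 0.109 for 20 and 0.109 for 5293 above 1000. The smallest values were those of Top2b, Snx3, Plekha6, Astn1 and AABR07017145.1, at 0.085 to 0.094. Top2b had 79.7, 88.5, 80.6 and 85.6 CPM in circNrxn3 siRNA rats, against 83.04, 84.8, 85.6 and 81.2 CPM in scrambled rats, and its log2 fold change was -0.0011 ± 0.06 (SE; edgeR, adjusted p = 0.999).

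**Figure D4:**
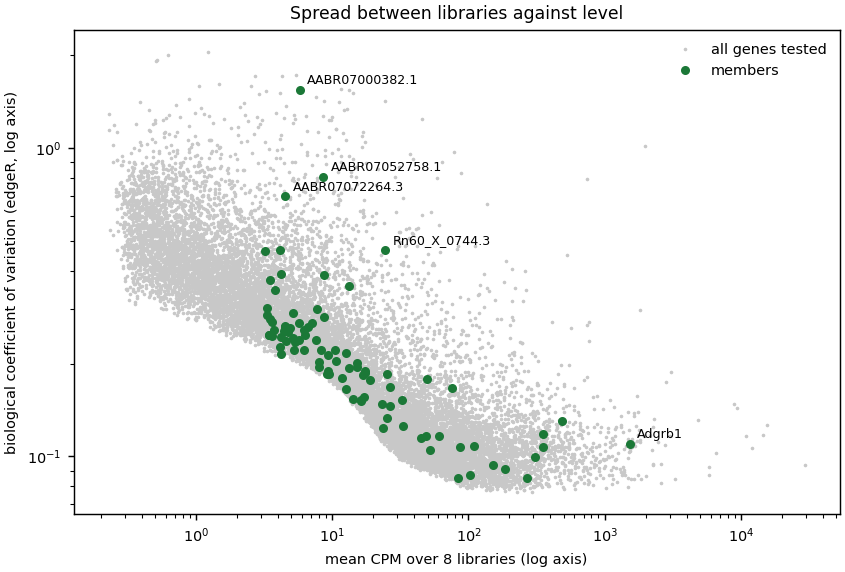
Biological coefficient of variation (y axis, log) against mean CPM over the 8 libraries (x axis, log) for all 16573 genes tested (grey) and the 91 genes (green). Green points follow the fall of the grey cloud with level, and AABR07000382.1, at 1.54, lies far above it.

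A few genes were uneven between animals. Highest over lowest library exceeded 3 at 10 of the 91 genes (11.0%, against 22.0% of all genes tested and 6.73% of those with a mean count of at least 100). By biological coefficient of variation, the 5 with the largest spread follow. AABR07000382.1 (chr1:11766992-11772215, plus strand) had 0.514, 0.457, 27.0 and 0.504 CPM in circNrxn3 siRNA rats, against 3.33, 0.0596, 0.924 and 13.5 CPM in scrambled rats, a range of 453-fold. It was high in replicate 3 of the circNrxn3 siRNA group and replicate 5 of the scrambled group, and below 4 CPM in the other 6 libraries.

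AABR07052758.1 had 5.70, 5.19, 11.8 and 9.52 CPM in circNrxn3 siRNA rats, against 1.54, 2.71, 27.3 and 4.83 CPM in scrambled rats. Replicate 4 of the scrambled group stood far above the others of its group. AABR07072264.3 had 2.68, 3.23, 1.58 and 8.73 CPM in circNrxn3 siRNA rats, against 3.43, 0.775, 8.82 and 6.93 CPM in scrambled rats. The gene overlaps another of the 91, AABR07072264.2, on the opposite strand, which ran from 4.67 to 7.81 CPM in circNrxn3 siRNA rats and from 5.06 to 8.41 CPM in scrambled rats.

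Rn60_X_0744.3, on X, had 16.1, 17.4, 19.3 and 44.5 CPM in circNrxn3 siRNA rats, against 14.1, 22.8, 46.6 and 15.3 CPM in scrambled rats, so replicate 4 of each group was high. LOC100910839 had 5.00, 5.12, 2.30 and 3.91 CPM in circNrxn3 siRNA rats, against 8.09, 1.61, 2.65 and 4.08 CPM in scrambled rats. For all 5 the groups overlapped, and the adjusted p ran from 0.948 to 1.0 (edgeR).

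**Figure D5:**
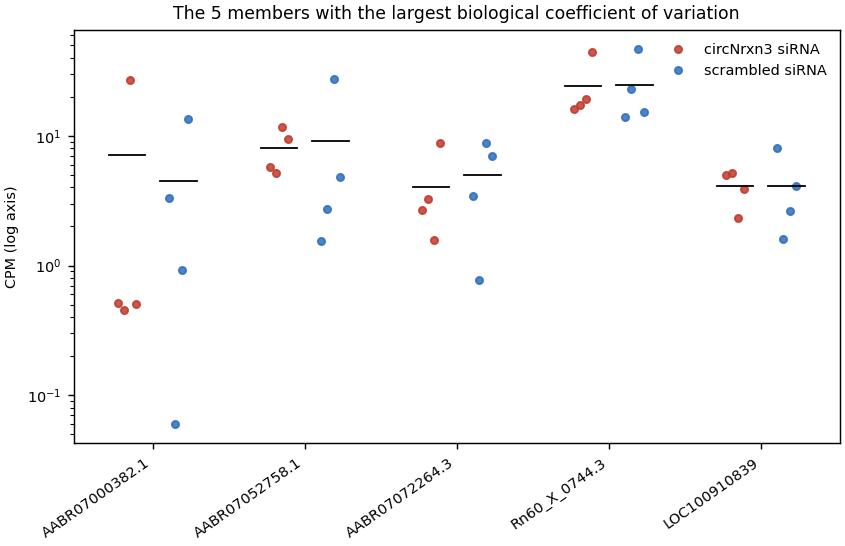
CPM (log axis) of the 5 genes with the largest biological coefficient of variation, with 1 point per library, circNrxn3 siRNA left of scrambled siRNA for each gene, and black lines at the group means. AABR07000382.1 runs from 0.0596 to 27.0 CPM, and replicate 4 of each group is the highest of its group at Rn60_X_0744.3.

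Genes that lie close to protein-coding genes were read beside them. Of the 91, 21 overlapped a protein-coding gene or lay within 1 kb of one, and 11 of these overlapped. In 20 of the 28 pairs the neighbour was tested, 11 of the 20 had the same sign of fold change and 0 of the neighbours had an adjusted p under 0.05. AABR07048624.1 starts 38 bp from Brinp1, a neural cell cycle inhibitor, with log2 fold changes of 0.15 for the lincRNA and 0.10 for Brinp1. AABR07070131.1 ends 478 bp from the cell adhesion gene Ncam1, with -0.10 for the lincRNA and 0.10 for Ncam1. Rn60_9_0737.3 overlaps LOC689991 on the other strand, with -0.14 for the antisense row and 0.06 for LOC689991. AABR07073038.2, described above, starts 236 bp from a pseudogene row, AABR07073038.1, which also did not overlap between groups, with a log2 fold change of -0.07 (adjusted p = 0.844, edgeR).

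None of the well-known noncoding RNAs looked for was found by name among the 91. The lists covered snoRNA hosts, imprinted RNAs, nuclear and X-inactivation RNAs, microRNA hosts and neural RNAs, and their symbols matched only Snhg11 (annotated protein-coding, so not included) and Miat in the table. The files do not pair clone names with the names of known noncoding RNAs, so a known RNA under a clone name would be missed. Dlx6as, antisense to the interneuron homeobox gene Dlx6 and in mouse a regulator of it, was not in those lists under this spelling and was chosen after its values were seen. It had 5.87, 6.20, 3.89 and 5.83 CPM in circNrxn3 siRNA rats, against 5.83, 4.92, 6.08 and 6.76 CPM in scrambled rats, with overlap. Dlx6 had 1.76, 2.06, 1.51 and 2.02 CPM in circNrxn3 siRNA rats, against 1.61, 0.865, 0.686 and 1.26 CPM in scrambled rats, also with overlap. The log2 fold changes were -0.11 ± 0.20 (SE) for Dlx6as and 0.74 for Dlx6, with adjusted p of 0.928 and 0.833 (edgeR).

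Few of the genes held reads over the small RNA genes inside them. LOC102549726, the only one that RefSeq lists as lncRNA, spans the SNORD48 and SNORD52 rows, which had mean counts of 0.25 and 0. Astn1, a receptor for neuron migration along glia, spans Mir488 on the same strand, which had 0 counts in all libraries. The products of this hairpin are shown because it is the only microRNA row with a mature sequence inside any of the 91 (RefSeq, GRCr8, chromosome 13, seed in capitals).
rno-miR-488-5p: cCCAGAUAauggcacucucaa
rno-miR-488-3p: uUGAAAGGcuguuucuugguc
Astn1 had 204, 194, 173 and 173 CPM in circNrxn3 siRNA rats, against 195, 186, 182 and 177 CPM in scrambled rats, and its log2 fold change was 0.01 ± 0.08 (SE; edgeR, adjusted p = 0.993).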

How the data were processed

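The authors deposited a table of raw read counts per gene (no normalization) and a table of FPKM values for the same 34298 genes, with gene names, annotation and coordinates. Per the submitters' processing notes, rn6 was the build, and the tools were HISAT2 2.0.5, fastp, featureCounts 1.5.0-p3 and StringTie 1.3.3b, without their roles. Per the labels' protocols, the poly-T selected libraries mark strand by dUTP, and no source used here says if counting used strand. Samples of a group are biological replicates per the labels, so p-values rest on the spread among these rats.

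Counts were fitted with edgeR 4.0.16 (R 4.3.3): filterByExpr (minimum count 10, 16573 genes), TMM, robust quasi-likelihood F test without covariates, 2-sided, Benjamini-Hochberg, threshold 0.05. CPM use TMM factors. Exact permutation tests of library measures have 70 arrangements and a smallest p of 0.0286. The procedure was tested on simulated data. Libraries of a group all differed by more than sampling noise (chi-square over degrees of freedom, 23.2 to 47.4). Replicate numbers 1, 3 and 4 occur in both groups. Deviations from group means correlated at 0.45, 0.40 and 0.12 between libraries of the same number, so weakly for number 4. From the data alone, the numbers were taken to pair the samples. The main fit and its p-values are unpaired, and the fit with the number as a block was an alternative. Other alternatives were RLE, upper-quartile and protein-coding TMM scaling, other filters, DESeq2 1.42.0, limma 3.58.1 (voom, and log2(FPKM + 1) and log2(FPKM + 0.1)), a threshold of 0.10, minimum mean counts of 50 and 200, and leaving out each library.

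The genes and lists were chosen with earlier results of these data known. Genes named are the 10 with the highest mean FPKM, the 10 with the smallest unadjusted p in each direction, those in the lists of noncoding RNAs, the 3 on each side of the count minimum, the 5 with the largest and smallest spread, and their protein-coding overlaps. One gene that the rule names is not reported here. Other genes named were chosen after their values were seen. RefSeq entries (GRCr8) were matched by symbol or synonym, and 24 of 91 matched. Of the microRNA rows considered, 3 had mature sequences.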

Additional observations from a re-analysis of the deposited data

Results flagged for a closer look

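Of 68 groups of 4 libraries looked at for the named genes, 6 had 1 library far from the other 3. Chance gives about 1 in 20 in genes not chosen for their spread, and 3 of the 6 are in genes named for a large spread, to which that rate does not apply. AABR07000382.1 had 27.0 CPM in replicate 3 of the circNrxn3 siRNA group, against 0.457 to 0.514 CPM in the others of that group. Rn60_X_0744.3 had 44.5 CPM in replicate 4 of the circNrxn3 siRNA group, with 16.1 to 19.3 CPM in the others. AABR07030914.1 had 3.53 CPM in replicate 2 of the circNrxn3 siRNA group, with 4.71 to 4.85 CPM in the others, and AABR07068341.1 had 10.4 CPM in the same library, with 9.46 to 9.52 CPM in the others. In the scrambled group, AABR07052758.1 had 27.3 CPM in replicate 4, with 1.54 to 4.83 CPM in the others, and Rn60_9_0737.3 had 29.8 CPM in replicate 5, with 35.6 to 35.8 CPM in the others.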

How the results depend on the processing

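Under 12 other settings, and with each of the 8 libraries left out in turn, 0 of the 91 genes were called, though DESeq2 gave an adjusted p to 17 of them and the filter of CPM of at least 1 in 4 libraries kept 90. DESeq2 called 18 of all genes, and leaving out a library gave 0 to 1, with 1 without replicate 2 or replicate 3 of the circNrxn3 siRNA group. The count at an unadjusted p under 0.05 was 5 to 12 without 1 library. Over the 6 libraries with shared numbers it was 9 with the replicate block and 3 without it, and the block changed no other call. With the block, the adjusted p (edgeR) in these 6 libraries was 0.162 for AABR07002910.1 and 0.178 for Adgrb1. Without the block it was above 0.833 for both in the same 6 libraries. The main fit, over all 8 libraries, gave 0.833 for both. The median log2 fold change was -0.0426 to 0.0097 without 1 library and -0.037 at a mean count of at least 200. It was -0.034 for genes without a protein-coding symbol in RefSeq. Without Adgrb1 the share of counts was 0.368% in circNrxn3 siRNA rats and 0.348% in scrambled rats. The sign turned for AABR07065531.5 (0.0128 with the replicate block, 0.0154 in the same libraries without it), Sv2b (-0.0347 with the block, -0.0342 without it, and -0.0324 to 0.116 leaving out 1 library, the lowest without scrambled replicate 5), Rn60_1_0436.1 (-0.0881 to 0.204 leaving out 1 library) and Dlx6as (-0.198 to 0.0068), the last pair turned by leaving out replicate 3 of the circNrxn3 siRNA group; the cause was not tested. Leaving out 1 library also gave Tnxb -0.16 and Rn60_1_1362.2 -0.67 (circNrxn3 siRNA replicate 1 and 3), Syne1 0.10, AABR07030914.1 -0.25 and AABR07024542.1 0.10 (scrambled replicate 3, 4 and 5).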
